A study of Mus musculus with 10 samples.

Results

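Myosin Vb is a motor protein that moves recycling endosomes toward the apical membrane of epithelial cells, and its loss causes microvillus inclusion disease, in which enterocytes fail to build a working brush border. Enterocytes of the jejunum carry the disaccharidases, peptidases and sodium-coupled transporters that digest and absorb nutrients, and they mature as they move from crypt to villus. Lysophosphatidic acid (LPA) is a phospholipid that signals through G protein-coupled receptors on these cells. The comparison asked which transcripts of LPA-treated MYO5B-knockout mice lay away from the level of uninduced control mice and which lay at it. It takes in 15729 of 35275 genes, chosen by a mean of at least 0.1 FPKM (a read count divided by gene length and by library total) over all 10 libraries, in 6 of 10 mice.

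RNA came from jejunal epithelial cells of adult C57BL/6 mice of the genotype VillinCreERT2;MYO5Bflox/flox, labelled male, so that the controls also carried the recombinase and the floxed alleles. Control mice (numbers 2, 4 and 5) received corn oil. LPA-treated mice (numbers 1, 4 and 5) received a single dose of 2 mg tamoxifen, which induces the knockout, and LPA at 3 mg/kg intraperitoneally. Another 4 knockout mice (numbers 3, 5, 6 and 7) received tamoxifen and the vehicle of LPA, and their values are set beside the others. All cells were taken on day 4 with micro forceps in EDTA. Tamoxifen, MYO5B loss and LPA all differ between the compared groups and cannot be told apart. The villin promoter limits the recombinase to epithelium. Each mouse is 1 library, and p-values measure the spread between mice.

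Between 10949420 and 24470409 reads per library lay on genes. Control mouse 2 and vehicle-treated mouse 3 stood apart, with 12242 and 12601 detected genes against 17309 to 18267 in the other 8 libraries, and with 17.4% and 18% of reads on mitochondrial genes against at most 3.5%. Results are therefore also given without these 2 libraries. For LPA-treated mouse 1, one line of the description names the vehicle and another names LPA. Its library, like that of vehicle-treated mouse 3, held Xist reads (6568 and 1637) but none of 4 Y-linked genes, against the label male. Without LPA-treated mouse 1, 93 genes were called higher and 33 lower. The targeted gene, Myo5b (ENSMUSG00000025885), was present at 16.5, 32 and 26.1 FPKM in control and 11.7, 11.4 and 10.3 FPKM in LPA-treated mice. The groups did not overlap, but the difference missed the threshold (log2 difference -1.10, SE 0.30, adjusted p = 0.0939). Its adjusted p ranged from 2.51e-08 to 0.281 over the alternatives, and it was 0.00651 without the 2 libraries. The count covers the whole transcript and not the deleted exons alone.

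Differences are log2 of FPKM + 0.1, LPA-treated minus control, a scale that understates the change of genes at low levels. A gene is called higher or lower at a Benjamini-Hochberg adjusted p below 0.05 in limma, and described as within 2-fold of control where the whole 95% interval of its difference lay between -1 and 1. Of the 15729 genes, 365 were called (2.32%), 243 of them higher (1.54%) and 122 lower (0.776%). All 365 lay outside the range of the other group's libraries, while 20.5% of all genes were higher and 6.38% lower in every LPA-treated than in every control library. A further 958 genes (6.09%) lay within 2-fold, and 14406 remained undecided. Of the 15729 genes, 2582 had an unadjusted p below 0.05 in limma. The tools edgeR and DESeq2, run on recovered reads, called 377 and 1503 of the 15729. The same counts given for lists are to be read against these. Without the 2 libraries, 678 genes were called higher (4.31%), 668 lower (4.25%) and 3335 lay within 2-fold (21.2%). Of the 365 calls, 350 were also made there. Where another setting ended the call of a gene, its adjusted p there is given in brackets or as a range. The settings on only 4 libraries (a replicate block, and the same libraries without it) ended all 365 calls. They are described with the processing and not repeated for each gene.

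The median difference of all genes tested was 0.41, and list medians are to be read against it. It was 0.13 without the 2 libraries and 0.10 after the libraries were scaled by the median of their ratios. That scaling moved the share of higher genes among the calls from 66.6% to 45.2% (221 higher, 268 lower), and quantile normalization moved it to 47.9%. No called gene changed direction in any alternative. Leaving out 1 library at a time gave 58 to 453 higher and 15 to 249 lower calls, and 49 higher and 13 lower genes were called in all 10 such fits. LPA-treated minus vehicle-treated knockout mice gave 0 calls with limma (0%), with 459 genes at an unadjusted p below 0.05, and no other tool was run on it here. Values of vehicle-treated mice are therefore only set side by side, and they are read against the same control libraries.

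**Figure D1:**
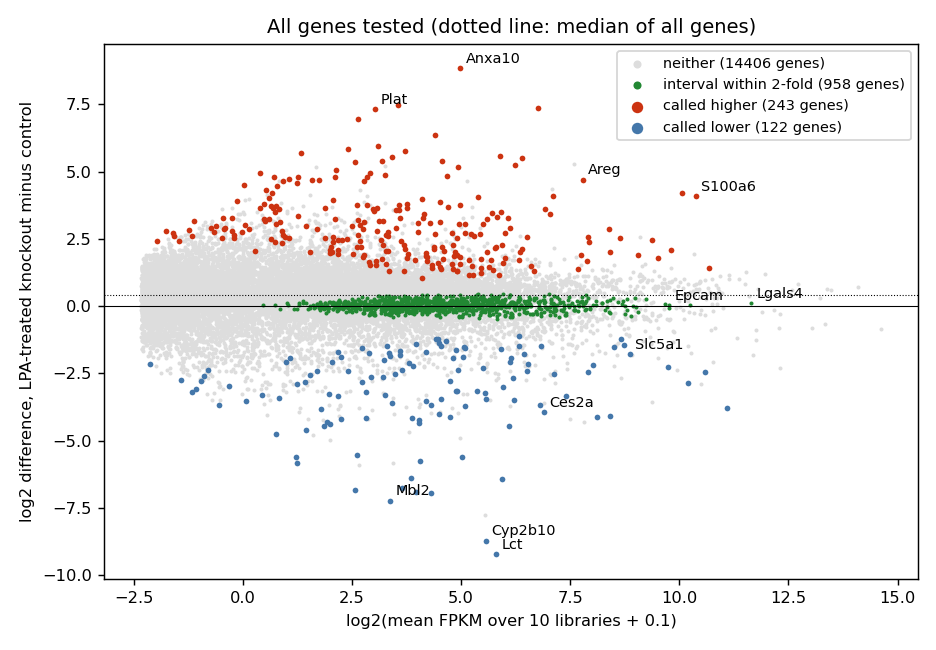
Log2 difference of LPA-treated knockout minus control for each of the 15729 genes tested (y axis) against log2 of the mean FPKM over 10 libraries + 0.1 (x axis). Red and blue points are the 243 genes called higher and the 122 called lower, green points are genes whose 95% interval lay within 2-fold, and the dotted line is the all-gene median of 0.41.

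Among the genes farthest below control were several that mark mature enterocytes. Lct, which encodes lactase (ENSMUSG00000026354, chromosome 1 from 128284756 to 128328318, GRCm38), was present at 114, 199.8 and 241 FPKM in control and 0.311, 0.253 and 0.0729 FPKM in LPA-treated mice (log2 difference -9.23, SE 1.27, adjusted p = 0.00661). LPA-treated mice kept almost none of a transcript that every control mouse held at a high level, and vehicle-treated mice averaged 1.4 FPKM. Mbl2, a mannose-binding lectin of innate defence, stood at 27.8, 31.4 and 41.5 FPKM in control and 0.0371, 0.157 and 0.204 FPKM in LPA-treated mice (log2 difference -7.23, SE 0.71, adjusted p = 0.00097). Dio1, a deiodinase that activates thyroid hormone, stood at 29.3, 64.9 and 59.9 FPKM in control and 0.339, 0.137 and 0.533 FPKM in LPA-treated mice (log2 difference -6.91, SE 0.76, adjusted p = 0.00196). These 3 genes were called in all 10 fits that left out 1 library. Some other enterocyte markers were not called lower. Fabp1 averaged 9717 FPKM in control and 15748 FPKM in LPA-treated mice (log2 difference 0.64, adjusted p = 0.511). Of 17 enterocyte transcription factors limma called 0, edgeR 1 and DESeq2 2 (median 0.063), and 3 fell without the 2 libraries. Of 12 villus tip genes limma called 0, edgeR 0 and DESeq2 2 (median 0.38), and without the 2 libraries 1 rose and 1 fell.

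Genes of sugar uptake had 6 of 12 members called lower and none higher (median -2.15, against -2.24 in vehicle-treated minus control). Slc5a1, the sodium-glucose cotransporter SGLT1, was present at 564, 1012 and 957 FPKM in control and 295, 228 and 198 FPKM in LPA-treated mice (log2 difference -1.79, SE 0.34, adjusted p = 0.0284). Every LPA-treated library lay below every control library, and vehicle-treated mice averaged 352 FPKM. Slc2a5, the fructose transporter GLUT5, stood at 163, 200.3 and 198 FPKM in control and 13.8, 20.8 and 15.1 FPKM in LPA-treated mice (log2 difference -3.50, SE 0.52, adjusted p = 0.00886). Slc5a11, an inositol cotransporter, stood at 39.5, 67 and 86.4 FPKM in control and 3.85, 5.23 and 2.44 FPKM in LPA-treated mice (log2 difference -4.02, SE 0.56, adjusted p = 0.00713) and was called in all 10 fits that left out 1 library. Slc5a4a, Slc5a4b and Khk, the fructose kinase, completed the 6. Without the 2 libraries 10 of the 12 fell (median -2.84). In fits leaving out 1 of the 10 libraries, calls were lost for Slc5a1 in 5 (up to 0.128), Slc2a5 in 1 (up to 0.0555), Slc5a4a in 4 (up to 0.0804), Slc5a4b in 6 (up to 0.116) and Khk in 4 (up to 0.0732). The highest p came without LPA-treated mouse 5, except Slc5a4b (without control mouse 5). Other settings also ended calls, with 0.01 FPKM added for Slc5a4a, and with the 6 compared libraries alone for Slc5a1, Slc5a4a, Slc5a4b and Khk, at adjusted p from 0.0561 to 0.102.

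Brush border carbohydrases and peptidases also lay low, but alkaline phosphatases did not. All 3 alkaline phosphatases tested had positive differences (median 1.31, and 1.27 without the 2 libraries), and limma, edgeR and DESeq2 called 0. Alpi, the most abundant of them, averaged 359 FPKM in control and 882 FPKM in LPA-treated mice (log2 difference 1.31, adjusted p = 0.479). All 4 carbohydrases had negative differences (median -2.03), and Lct alone was called, while all 4 were called without the 2 libraries (median -2.73). Mgam, maltase-glucoamylase and the most abundant of them, was at 163, 372 and 420.1 FPKM in control and 176, 164 and 186 FPKM in LPA-treated mice (log2 difference -0.75, SE 0.38, adjusted p = 0.357). Of 16 peptidases, Ggt1, Mep1a, Naaladl1 and Pepd fell and none rose (median -1.49). Mep1a, a subunit of the metalloprotease meprin, stood at 5.86, 28.8 and 40.6 FPKM in control and 2.05, 2.53 and 1.21 FPKM in LPA-treated mice (log2 difference -3.29, SE 0.71, adjusted p = 0.045). Anpep, aminopeptidase N, was at 1572, 2042 and 2072 FPKM in control and 856, 953 and 384 FPKM in LPA-treated mice and missed the threshold although the groups did not overlap (log2 difference -1.47, SE 0.57, adjusted p = 0.228). Of 14 carriers of peptides and amino acids, Slc43a2 (log2 difference -3.46, SE 0.57, adjusted p = 0.014) and Slc7a8 (log2 difference -2.38, SE 0.47, adjusted p = 0.0323) fell and none rose. Among 20 genes of the microvillus core, Espn, an actin bundler (log2 difference -1.60, SE 0.36, adjusted p = 0.0496), and Ush1c, a protein of the links between microvilli (log2 difference -1.10, SE 0.25, adjusted p = 0.0498), fell, and Baiap2l2 lay within 2-fold. Of the 10 fits that each left out 1 library, calls were lost for Ggt1 in 8 (up to 0.188), Mep1a in 7 (up to 0.182), Naaladl1 in 8 (up to 0.16), Pepd in 8 (up to 0.195), Slc43a2 in 4 (up to 0.0774), Slc7a8 in 6 (up to 0.134), Espn in 9 (up to 0.2) and Ush1c in 9 (up to 0.173). Each p in brackets came without LPA-treated mouse 5, except Naaladl1 (without control mouse 5). Calls were lost too with 0.01 FPKM added for Ggt1, Mep1a, Pepd and Espn, with no filter for Ggt1, Mep1a, Naaladl1, Pepd, Espn and Ush1c, after median-ratio scaling for Ggt1, Naaladl1, Espn and Ush1c, with the 6 compared libraries alone for Ggt1, Mep1a, Naaladl1, Slc7a8, Espn and Ush1c, without the 2 libraries for Ggt1, Naaladl1 and Espn, and by edgeR for Ggt1, Espn and Ush1c, at adjusted p from 0.0514 to 0.131.

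Cytochrome P450 genes, which oxidize drugs and other foreign compounds, had 5 of 22 members lower and 1 higher (median -2.11, and -2.84 with 12 lower without the 2 libraries). Cyp2b10 stood at 11.1, 223 and 229.7 FPKM in control and 0.171, 0.181 and 0 FPKM in LPA-treated mice (log2 difference -8.72, SE 1.55, adjusted p = 0.0193). Cyp2c55 stood at 14.4, 137 and 43.9 FPKM in control and 0.328, 0.232 and 0.226 FPKM in LPA-treated mice (log2 difference -6.95, SE 0.80, adjusted p = 0.00279), and vehicle-treated mice averaged 0.566 FPKM. Cyp3a13 lay the other way, at 238, 537 and 327 FPKM in control and 828, 1706 and 1220.1 FPKM in LPA-treated mice (log2 difference 1.79, SE 0.40, adjusted p = 0.0477). Ces2a, a carboxylesterase, stood at 239, 516 and 306 FPKM in control and 16, 24.6 and 26.3 FPKM in LPA-treated mice (log2 difference -3.94, SE 0.33, adjusted p = 0.0004). It was, like Cyp2c55, called in all 10 fits that left out 1 library. Among 14 metabolic nuclear receptors, Nr1h3, the oxysterol receptor LXRα (log2 difference -1.91, SE 0.34, adjusted p = 0.0197), and Vdr, the vitamin D receptor (log2 difference -1.90, SE 0.38, adjusted p = 0.0326), fell. Members of the Cyp2c, Cyp3a, Ces2 and Slc5a4 families are alike in sequence, and how shared reads were assigned was not tested. Among the 10 leave-one-out fits, calls were lost for Cyp2b10 in 5 (up to 0.1), Cyp3a13 in 9 (up to 0.166), Nr1h3 in 5 (up to 0.0981) and Vdr in 6 (up to 0.138). These values arose without LPA-treated mouse 5. Under other settings calls were lost with 0.01 FPKM added for Cyp2b10 and Cyp3a13, with no filter for Cyp3a13, after median-ratio scaling for Cyp3a13, with the 6 compared libraries alone for Cyp3a13, without the 2 libraries for Cyp3a13, and by edgeR for Cyp3a13, at adjusted p from 0.055 to 0.135.

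The other genes with the largest falls were Gsdmc4 and Gsdmc2 of the gasdermin family, Slc5a4a, Cyp3a25, Dnase1, Oas1e and Slc28a1, a nucleoside carrier, with differences from -6.83 to -5.59. Oas1e had 0 reads in the 3 LPA-treated libraries, and was at least 203-fold lower than in control mice when set against 3 reads over that group. Dnase1 overlaps Trap1 on the opposite strand, and without a stated strand setting their reads cannot be told apart. Pigr, which carries immunoglobulin A across the epithelium, stood at 5694, 1734 and 1356 FPKM in control and 303, 232 and 502 FPKM in LPA-treated mice (log2 difference -2.86, SE 0.60, adjusted p = 0.0418). Reg1, a secreted lectin, stood at 144, 1483 and 907 FPKM in control and 35.9, 51.8 and 18.8 FPKM in LPA-treated mice (log2 difference -4.14, SE 0.88, adjusted p = 0.0426). With 1 of the 10 libraries left out, calls were lost for Gsdmc4 in 3 (up to 0.0665), Gsdmc2 in 5 (up to 0.101), Slc5a4a in 4 (up to 0.0804), Cyp3a25 in 5 (up to 0.0934), Dnase1 in 1 (up to 0.051), Oas1e in 5 (up to 0.129), Slc28a1 in 4 (up to 0.101), Pigr in 8 (up to 0.142) and Reg1 in 8 (up to 0.179). The fit behind each was that without LPA-treated mouse 5, except Cyp3a25 (without control mouse 5) and Pigr (without LPA-treated mouse 4). Beyond these fits, calls were lost with 0.01 FPKM added for Slc5a4a and Oas1e, with no filter for Oas1e, Pigr and Reg1, after median-ratio scaling for Pigr, with the 6 compared libraries alone for Slc5a4a, Cyp3a25, Pigr and Reg1, and by edgeR for Oas1e and Pigr, at adjusted p from 0.0555 to 0.109.

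**Figure D2:**
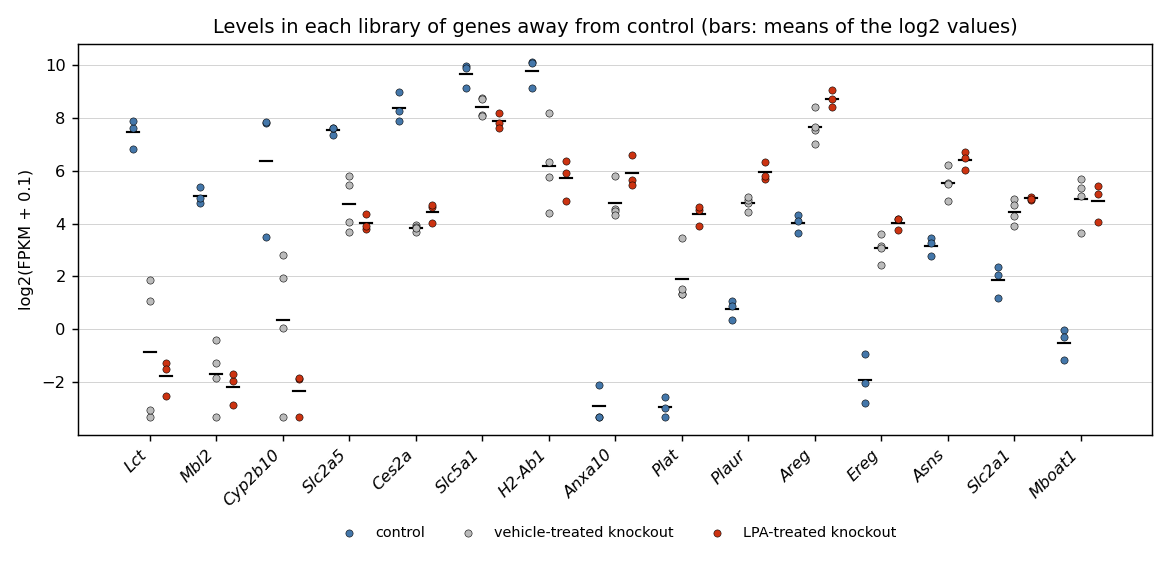
Level of 15 named genes in each library as log2(FPKM + 0.1); points are mice (control blue, vehicle-treated knockout grey, LPA-treated knockout red) and bars are means of the log2 values. From Lct to H2-Ab1 the red points lie below all blue points and from Anxa10 to Mboat1 above them, and the grey points lie on the same side of the blue ones as the red points.

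Far above control lay markers of fetal-like, wound-associated epithelium, a state seen in injured intestine. Of 25 tested, 12 were called higher and none lower (median 3.26, and 3.02 with 16 higher without the 2 libraries). The median in vehicle-treated minus control mice was 1.56. Anxa10, an annexin, was present at 0, 0 and 0.13 FPKM in control and 51, 98 and 44.5 FPKM in LPA-treated mice (log2 difference 8.85, SE 0.52, adjusted p = 6.75e-05). Plat, the tissue plasminogen activator, stood at 0, 0.0257 and 0.0677 FPKM in control and 23, 14.9 and 24.4 FPKM in LPA-treated mice (log2 difference 7.31, SE 0.60, adjusted p = 0.0004), and vehicle-treated mice averaged 4.62 FPKM. Plaur, the urokinase receptor, stood at 1.17, 2.00 and 1.72 FPKM in control and 51.4, 81.1 and 55.5 FPKM in LPA-treated mice (log2 difference 5.18, SE 0.32, adjusted p = 6.75e-05). The groups were far apart in these 3 genes, and each was called in all 10 fits that left out 1 library. S100a6, a calcium-binding protein, reached much higher levels, at 188, 87.9 and 106 FPKM in control and 1227, 2514 and 2845 FPKM in LPA-treated mice (log2 difference 4.09, SE 0.65, adjusted p = 0.0117). Krt7, Tnfrsf12a, Anxa3, Anxa5, S100a11, Sprr1a and Ly6d were among the other calls. Outside the list, Syt8 and Psca had 0 reads in the 3 control libraries and were at least 447-fold and at least 159-fold higher in LPA-treated mice when set against 3 reads over the control group. In fits leaving out 1 of the 10 libraries, calls were lost for S100a6 in 4 (up to 0.0716), Krt7 in 5 (up to 0.0973), Tnfrsf12a in 4 (up to 0.0823), S100a11 in 8 (up to 0.131), Ly6d in 3 (up to 0.0712) and Psca in 5 (up to 0.0717). The highest p came without LPA-treated mouse 5, except Krt7 (without LPA-treated mouse 4), Tnfrsf12a (without LPA-treated mouse 4) and S100a11 (without LPA-treated mouse 1). Other settings also ended calls, with no filter for S100a11, with the 6 compared libraries alone for S100a11, and by edgeR for S100a6, Ly6d and Psca, at adjusted p from 0.051 to 0.0654.

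Areg, Ereg and Btc, ligands of the EGF receptor, which drives growth and repair of epithelium, also rose. Areg (amphiregulin) was present at 12.5, 19.9 and 17.3 FPKM in control and 342, 531 and 426 FPKM in LPA-treated mice (log2 difference 4.70, SE 0.37, adjusted p = 0.0004). Ereg (epiregulin) stood at 0.0438, 0.141 and 0.428 FPKM in control and 13.5, 17.9 and 18.1 FPKM in LPA-treated mice (log2 difference 5.96, SE 0.51, adjusted p = 0.0004). Btc (betacellulin) stood at 0.756, 1.38 and 1.31 FPKM in control and 17, 18 and 8.74 FPKM in LPA-treated mice (log2 difference 3.53, SE 0.51, adjusted p = 0.00809). They were the 3 calls among 12 tested genes of the EGF family, of which 2 had negative differences. In these 3 the groups did not overlap, and each was called in all 10 fits that left out 1 library. Vehicle-treated mice averaged 216 FPKM of Areg, 8.68 FPKM of Ereg and 7.98 FPKM of Btc. Among 18 immediate early genes, which answer growth signals within minutes, Egr1 alone was called, at 1.57, 1.43 and 1.44 FPKM in control and 6.9, 5.44 and 7.55 FPKM in LPA-treated mice (log2 difference 2.08, SE 0.41, adjusted p = 0.0316). Of the 10 fits that each left out 1 library, the call was lost for Egr1 in 6 (up to 0.137, without LPA-treated mouse 5). Egr1 also lost its call after median-ratio scaling (0.0901), after quantile normalization (0.0928), with the 6 compared libraries alone (0.0514) and by edgeR (0.0698).

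Targets of ATF4, a transcription factor that induces amino acid synthesis and uptake when amino acids or protein folding are limiting, had 6 of 17 members called higher and none lower (median 2.27, and 2.16 with 9 higher without the 2 libraries). In 14 of the 17 every LPA-treated library lay above every control library, as it did in 20.5% of all genes tested. Asns, asparagine synthetase, was present at 6.69, 10.9 and 9.46 FPKM in control and 105, 65.4 and 89.8 FPKM in LPA-treated mice (log2 difference 3.26, SE 0.37, adjusted p = 0.00251). Psat1 of serine synthesis stood at 1.00, 2.56 and 1.51 FPKM in control and 46.2, 18.9 and 20.5 FPKM in LPA-treated mice (log2 difference 3.97, SE 0.52, adjusted p = 0.00476). Both were called in all 10 fits that left out 1 library. Phgdh, the first enzyme of the same pathway, stood at 10.9, 4.94 and 4.68 FPKM in control and 64, 32.5 and 70.4 FPKM in LPA-treated mice (log2 difference 3.04, SE 0.44, adjusted p = 0.00833). Slc7a11, the cystine carrier, had 1 read in the 3 control libraries together and stood at 5.22, 4.01 and 6.5 FPKM in LPA-treated mice (log2 difference 5.68, SE 0.97, adjusted p = 0.017). Chac1 and Atf5 were the other calls. Atf4 itself was at 108, 131 and 125 FPKM in control and 243, 199.5 and 262 FPKM in LPA-treated mice and missed the threshold (log2 difference 0.95, SE 0.29, adjusted p = 0.128). Among the 10 leave-one-out fits, calls were lost for Phgdh in 1 (up to 0.0553), Slc7a11 in 5 (up to 0.0872), Chac1 in 6 (up to 0.107) and Atf5 in 3 (up to 0.0774). These values arose without LPA-treated mouse 5, except Chac1 (without control mouse 5). Calls were lost too with 1 FPKM added for Chac1, and with the 6 compared libraries alone for Atf5, at adjusted p from 0.06 to 0.0669.

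The promoters of 5 genes far from control are shown because the data bear on their transcript levels, as the 250 bases before the RefSeq start on GRCm38.p6, 5′ to 3′. Capitals mark short strings, found on either strand, that are known to be recognized by ATF4 (TGATGNAA, in Asns and Slc7a11), by AP-1 (TGANTCA, in Anxa10 and Plaur), and by GATA factors and CDX2 (AGATAA and TTTATG, in Lct). The windows are chr6:7693210-7693459, minus strand for Asns, chr3:50443614-50443863, minus strand for Slc7a11, chr8:62123194-62123443, minus strand for Anxa10, chr7:24462233-24462482, plus strand for Plaur, and chr1:128328319-128328568, minus strand for Lct.
Asns: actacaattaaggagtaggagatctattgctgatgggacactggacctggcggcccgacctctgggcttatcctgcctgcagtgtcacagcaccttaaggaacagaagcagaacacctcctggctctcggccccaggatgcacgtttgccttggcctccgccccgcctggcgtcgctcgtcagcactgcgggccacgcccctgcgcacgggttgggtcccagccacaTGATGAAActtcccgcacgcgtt
Slc7a11: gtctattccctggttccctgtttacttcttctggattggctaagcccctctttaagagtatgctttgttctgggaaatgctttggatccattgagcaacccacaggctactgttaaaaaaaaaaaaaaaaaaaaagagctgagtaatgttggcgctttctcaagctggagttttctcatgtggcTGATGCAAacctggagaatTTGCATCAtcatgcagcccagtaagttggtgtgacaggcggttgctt
Anxa10: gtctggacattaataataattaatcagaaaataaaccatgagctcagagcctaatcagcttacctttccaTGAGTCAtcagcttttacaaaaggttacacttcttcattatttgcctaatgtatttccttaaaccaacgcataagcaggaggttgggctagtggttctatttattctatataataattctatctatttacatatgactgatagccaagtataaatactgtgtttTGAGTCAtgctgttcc
Plaur: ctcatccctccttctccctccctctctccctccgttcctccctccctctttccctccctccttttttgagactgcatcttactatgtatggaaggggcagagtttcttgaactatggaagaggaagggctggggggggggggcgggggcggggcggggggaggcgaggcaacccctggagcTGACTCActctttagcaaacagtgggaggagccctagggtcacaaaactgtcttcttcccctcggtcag
Lct: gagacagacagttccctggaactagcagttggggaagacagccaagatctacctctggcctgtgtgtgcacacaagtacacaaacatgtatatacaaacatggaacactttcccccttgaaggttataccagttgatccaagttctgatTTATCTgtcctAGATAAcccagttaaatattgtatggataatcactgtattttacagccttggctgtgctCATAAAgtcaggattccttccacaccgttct
The ATF4 string begins 23 bases before the start of Asns and 66 and 47 bases before that of Slc7a11. Of the 17 tested ATF4 targets 16 had a RefSeq window, and 5 of these genes held the string in at least 1 window. It was in 3.97% of all 32851 RefSeq windows, which run from 250 bases before to 50 bases after a start. The first value counts genes and the other counts single windows, so they are unlike measures. The list was made of ATF4 targets, so the string in it is not independent support. The AP-1, GATA and CDX2 strings were in 7.81%, 11.2% and 11.9% of all windows, and in 1, 2 and 3 of the 16 listed genes. RefSeq windows were found for 66.1% of the genes tested, and called genes were not compared with the rest. A match describes letters only.

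In lipid synthesis, 3 of 24 sterol genes rose, none fell and 2 lay within 2-fold (median 1.05), and 11 rose without the 2 libraries. Hmgcs1, which makes HMG-CoA for cholesterol, was at 53.4, 66.1 and 48.7 FPKM in control and 148, 134 and 130.2 FPKM in LPA-treated mice (log2 difference 1.30, SE 0.26, adjusted p = 0.0323). Acat2, which makes the acetoacetyl-CoA that feeds the same pathway, was also called (log2 difference 1.58, SE 0.30, adjusted p = 0.0261). Of 14 genes of fatty acid synthesis, limma called 0, with 6 at an unadjusted p below 0.05, 0 called by edgeR and 2 by DESeq2 (median 1.23), while 2 rose without the 2 libraries. Acadl, a dehydrogenase of fatty acid oxidation, stood at 49, 83.2 and 91.6 FPKM in control and 345, 436 and 349.7 FPKM in LPA-treated mice (log2 difference 2.38, SE 0.35, adjusted p = 0.00836), and was called in all 10 fits that left out 1 library. The median of the 18 genes of fat oxidation and ketone synthesis was 0.44, but -0.29 without the 2 libraries. Slc2a1, the glucose transporter GLUT1 (log2 difference 3.09, SE 0.38, adjusted p = 0.0034), and Hk1, a hexokinase (log2 difference 3.00, SE 0.61, adjusted p = 0.034), rose among 17 glycolytic genes, Slc2a1 in all 10 fits that left out 1 library. With 1 of the 10 libraries left out, calls were lost for Hmgcs1 in 7 (up to 0.142, without control mouse 5), Acat2 in 5 (up to 0.112, without LPA-treated mouse 5) and Hk1 in 7 (up to 0.121, without LPA-treated mouse 1). Under other settings calls were lost after median-ratio scaling for Hmgcs1 and Acat2, with the 6 compared libraries alone for Hmgcs1 and Hk1, and by edgeR for Hmgcs1 and Acat2, at adjusted p from 0.0616 to 0.142.

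Enzymes that act on LPA and related lysophospholipids were among the calls, 3 higher and 1 lower of 21 tested genes. Mboat1, an acyltransferase that adds a fatty acid to lysophospholipids, stood at 0.344, 0.875 and 0.71 FPKM in control and 43.5, 35 and 16.5 FPKM in LPA-treated mice (log2 difference 5.38, SE 0.57, adjusted p = 0.00165). Mboat2 stood at 0, 0.0695 and 0.0815 FPKM in control and 1.79, 10.8 and 2.36 FPKM in LPA-treated mice (log2 difference 4.67, SE 0.75, adjusted p = 0.0126), and Lpcat4 at 4.38, 1.8 and 2.74 FPKM in control and 21.1, 29.3 and 24.1 FPKM in LPA-treated mice (log2 difference 3.09, SE 0.37, adjusted p = 0.00288). Agpat3, which acylates LPA to phosphatidic acid, was lower, and none of the 5 LPA receptors tested was called. Vehicle-treated mice, which received no LPA, averaged 34.3 FPKM of Mboat1, 0.696 FPKM of Mboat2 and 19.1 FPKM of Lpcat4. Mboat1 and Lpcat4 were called in all 10 fits that left out 1 library. In fits leaving out 1 of the 10 libraries, calls were lost for Mboat2 in 2 (up to 0.0567, without control mouse 5) and Agpat3 in 7 (up to 0.152, without control mouse 5). Beyond these fits, calls were lost with the 6 compared libraries alone for Mboat2 and Agpat3, at adjusted p from 0.0569 to 0.0864.

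Among 16 genes of tight junctions, Cldn2 and Cldn4 rose and none fell. Cldn2, which forms a pore for cations and water, stood at 7.88, 12.7 and 8.93 FPKM in control and 161, 78.6 and 66.3 FPKM in LPA-treated mice (log2 difference 3.28, SE 0.44, adjusted p = 0.00595), and was called in all 10 fits that left out 1 library. Cldn4, a sealing claudin, stood at 26.9, 123 and 131 FPKM in control and 449, 517 and 392 FPKM in LPA-treated mice (log2 difference 2.57, SE 0.55, adjusted p = 0.0432). Of 8 general epithelial markers, whose sum was 4821 to 5972 FPKM in control and 8238 to 10087 FPKM in LPA-treated mice, the keratins Krt18 (log2 difference 2.46, SE 0.49, adjusted p = 0.0316) and Krt19 (log2 difference 1.43, SE 0.32, adjusted p = 0.0483) rose, and Epcam and Cdx1 lay within 2-fold. Of the 10 fits that each left out 1 library, calls were lost for Cldn4 in 8 (up to 0.137, without LPA-treated mouse 4), Krt18 in 6 (up to 0.134, without LPA-treated mouse 5) and Krt19 in 9 (up to 0.163, without control mouse 5). Other settings also ended calls, with 0.01 FPKM added for Krt19, with no filter for Cldn4, Krt18 and Krt19, after median-ratio scaling for Krt18 and Krt19, after quantile normalization for Krt19, with the 6 compared libraries alone for Cldn4 and Krt19, by edgeR for Krt18 and Krt19, and by DESeq2 for Krt18 and Krt19, at adjusted p from 0.0504 to 0.314.

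**Figure D3:**
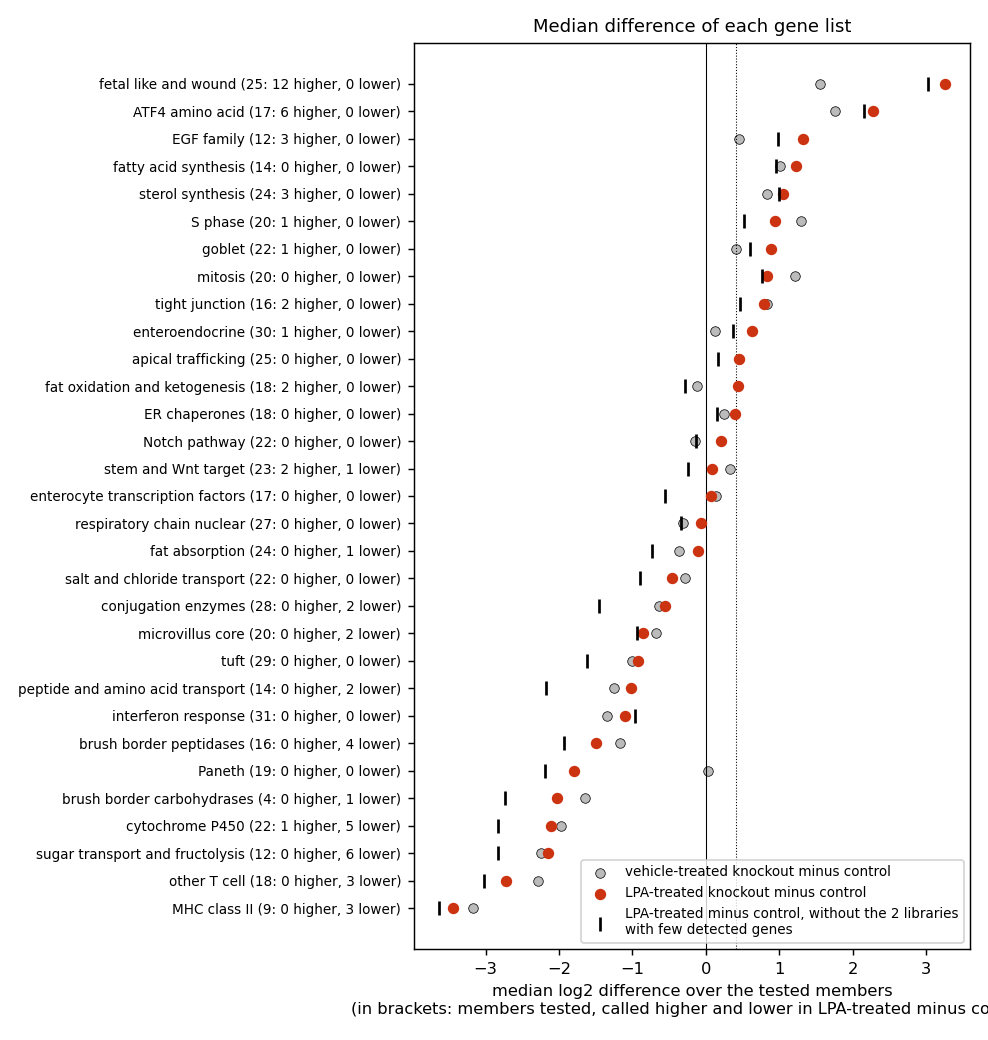
Median log2 difference over the tested members of 31 gene lists, for LPA-treated minus control (red), the same without the 2 libraries with few detected genes (black ticks) and vehicle-treated minus control (grey), with counts of called members in brackets. The red points run from -3.45 for MHC class II to 3.26 for the fetal-like and wound list, and the dotted line is the all-gene median of 0.41.

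The genes found at control level came from several lists. Epcam, the epithelial adhesion molecule, was present at 628, 1011 and 1052 FPKM in control and 828, 1151 and 758 FPKM in LPA-treated mice, a difference of 0.038 (95% interval -0.72 to 0.79). Lgals4, a galectin of enterocytes, was at 4149.8, 2786 and 2879.5 FPKM in control and 3073, 3442 and 3934 FPKM in LPA-treated mice, a difference of 0.11 (95% interval -0.66 to 0.88). Cdc42, a GTPase that sets apical polarity, was at 159, 244 and 249 FPKM in control and 241, 252 and 233 FPKM in LPA-treated mice, a difference of 0.18 (95% interval -0.40 to 0.76). The groups overlapped for each of these 3 genes. Creb3l3, a transcription factor of lipid handling, differed by 0.18 (95% interval -0.59 to 0.95) and Slc26a6, an apical anion exchanger, by -0.14 (95% interval -0.81 to 0.52). Of 22 genes of salt and chloride transport, Slc26a6, the chloride channel Cftr and the potassium channel subunit Kcne3 lay within 2-fold, against 6.09% of all genes. The list as a whole leaned low, with 19 of 22 differences negative (median -0.46, and -0.90 without the 2 libraries). Limma called 0 of the 22, with 5 at an unadjusted p below 0.05, 0 called by edgeR and 8 by DESeq2. Without the 2 libraries 2 fell. Slc9a3, the sodium-proton exchanger NHE3, was undecided, at 10.8, 14.1 and 6.61 FPKM in control and 21.5, 2.69 and 4.67 FPKM in LPA-treated mice, a difference of -0.61 (95% interval -2.44 to 1.22). The scaling mattered here: 1715 genes lay within 2-fold after median-ratio scaling, and 388 of the 958 were among them.

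Nuclear genes of the respiratory chain had 6 of 27 members within 2-fold, against 6.09% of all genes, and 12 of 27 without the 2 libraries, against 21.2%, where 2 of the 27 were called lower. Uqcrc1 of complex III was at 652, 594 and 601 FPKM in control and 530.1, 529 and 517 FPKM in LPA-treated mice, a difference of -0.23 (95% interval -0.80 to 0.34), with every LPA-treated library slightly below the controls. Cox5b of complex IV was at 939, 1000.0 and 1050.0 FPKM in control and 707, 1073 and 1129.7 FPKM in LPA-treated mice, a difference of -0.068 (95% interval -0.76 to 0.63). Limma called 0 of the 27, with 0 at an unadjusted p below 0.05, 0 called by edgeR and 2 by DESeq2. Chaperones of the endoplasmic reticulum had 3 of 18 within 2-fold, and 13 of 18 without the 2 libraries, where 1 was called higher. Genes of apical trafficking, the route on which MYO5B works, had 3 of 25 within 2-fold (Cdc42, Rab11b and Stxbp2), and 9 of 25 without the 2 libraries, where 1 was called higher and 1 lower. Stx3, the apical syntaxin, lay above control in every LPA-treated library without reaching the threshold, at 11.5, 21.8 and 25.4 FPKM in control and 49, 44.3 and 51.2 FPKM in LPA-treated mice (log2 difference 1.37, SE 0.36, adjusted p = 0.0845). Of 22 genes of the Notch pathway, Rbpj and Hes6 lay within 2-fold, and 1 was called lower without the 2 libraries. Vehicle-treated minus control mice gave 177 higher and 139 lower calls. None of these genes with a named symbol and a mean of at least 1 FPKM in the higher group lay within 2-fold of control under LPA. Both differences use the same control libraries, and only 6.09% of all genes lay within 2-fold. This count therefore cannot decide whether any gene returned to control level.

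**Figure D4:**
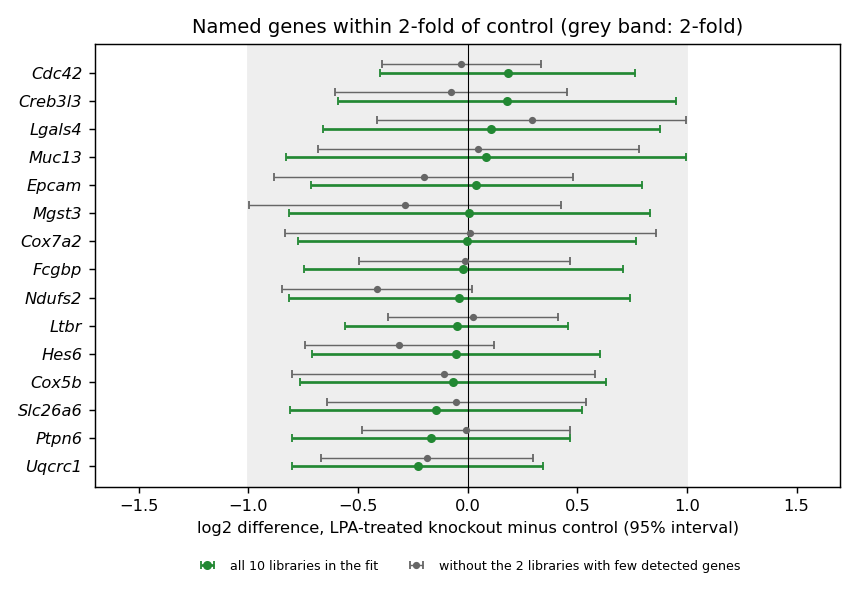
Log2 difference of LPA-treated knockout minus control with its 95% interval (x axis) for the 15 named genes within 2-fold of control, in the fit of all 10 libraries (green) and in the fit that omits control mouse 2 and vehicle-treated mouse 3 (grey). All green intervals lie inside the shaded band from -1 to 1, and the green points run from -0.23 for Uqcrc1 to 0.18 for Cdc42.

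The lineages of the epithelium were followed by their markers. In whole-epithelium RNA, fewer cells of a type and less RNA per cell cannot be told apart. Of 22 goblet cell genes, 19 had positive differences (median 0.89), and 3 rose without the 2 libraries (median 0.60). Agr2, a disulfide isomerase needed for mucin, alone was called, at 132, 266 and 263 FPKM in control and 741, 966 and 695 FPKM in LPA-treated mice (log2 difference 1.92, SE 0.42, adjusted p = 0.0471). Muc13 and Fcgbp lay within 2-fold. Fcgbp, a mucus protein, was at 591, 578 and 587 FPKM in control and 548, 673 and 521 FPKM in LPA-treated mice, a difference of -0.020 (95% interval -0.75 to 0.71). Of 19 Paneth cell genes limma called 0, with 12 at an unadjusted p below 0.05, 1 called by edgeR and 11 by DESeq2, and their median was -1.80, against 0.035 in vehicle-treated minus control. Without the 2 libraries 5 fell and 1 rose (median -2.19). The list summed to 5585, 15512 and 14331 FPKM for control mice 2, 4 and 5. Sums for vehicle-treated mice 3, 5, 6 and 7 were 10269, 10145, 9208 and 5774 FPKM, all below control mice 4 and 5 but above control mouse 2. LPA-treated mice 1, 4 and 5 had 6930, 1850 and 2665 FPKM. The vehicle-treated median of 0.035 includes control mouse 2 and is not given without it. It therefore cannot show whether these genes stayed at control level. Defa24, an antimicrobial defensin and the most abundant of them, was at 2187, 6748 and 6101 FPKM in control and 2358, 667 and 1352 FPKM in LPA-treated mice (log2 difference -1.80, SE 0.58, adjusted p = 0.148), and LPA-treated mouse 1 lay above the lowest control. Vehicle-treated mice averaged 3349 FPKM of Defa24, against a control mean of 5012 FPKM. Defensin genes are nearly identical, and how their reads were assigned was not tested. Among the 10 leave-one-out fits, the call was lost for Agr2 in 9 (up to 0.149, without LPA-treated mouse 4). Agr2 also lost its call with 0.01 FPKM added (0.0539), with no filter (0.0743) and with the 6 compared libraries alone (0.0795).

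Of 29 markers of tuft cells, a chemosensory lineage, limma called 0, with 9 at an unadjusted p below 0.05, 1 called by edgeR and 10 by DESeq2 (median -0.92, against -1.01 in vehicle-treated minus control). Without the 2 libraries the median was -1.62 and 10 fell. Differences were negative in 26 of the 29, and in 9 every LPA-treated library lay below every control library, as it did in 6.38% of all genes. Ly6g6f, the tuft cell gene with the smallest p, averaged 2.61 FPKM in control and 0.115 FPKM in LPA-treated mice (log2 difference -3.28, adjusted p = 0.0555). Trpm5, the cation channel of these cells, was at 4.85, 4.69 and 3.73 FPKM in control and 3.41, 2.72 and 1.78 FPKM in LPA-treated mice (log2 difference -0.76, SE 0.46, adjusted p = 0.438). Of 30 enteroendocrine genes, Gch1, which makes a cofactor of serotonin synthesis, alone was called (log2 difference 1.48, SE 0.32, adjusted p = 0.0437). Among 23 genes of stem cells and Wnt targets, Cd44 (log2 difference 1.92, SE 0.42, adjusted p = 0.0471) and Ephb3 (log2 difference 2.02, SE 0.46, adjusted p = 0.0496) rose, and Ascl2, a regulator of stem cells, fell, at 5.28, 2.62 and 3.68 FPKM in control and 0.938, 0.574 and 0.931 FPKM in LPA-treated mice (log2 difference -2.09, SE 0.46, adjusted p = 0.0471). Genes of S phase had a median of 0.95 and those of mitosis of 0.83, and of the 20 genes in each Rrm2, a subunit of ribonucleotide reductase, alone was called (log2 difference 2.68, SE 0.44, adjusted p = 0.0144). With 1 of the 10 libraries left out, calls were lost for Gch1 in 9 (up to 0.152), Cd44 in 8 (up to 0.187), Ephb3 in 8 (up to 0.221), Ascl2 in 9 (up to 0.162) and Rrm2 in 3 (up to 0.0806). The fit behind each was that without LPA-treated mouse 5, except Gch1 (without control mouse 5) and Ascl2 (without control mouse 5). Calls were lost too with 0.01 FPKM added for Cd44, Ephb3 and Ascl2, with no filter for Gch1, Cd44, Ephb3 and Ascl2, after median-ratio scaling for Gch1, Cd44 and Ephb3, after quantile normalization for Cd44 and Ephb3, with the 6 compared libraries alone for Gch1, Cd44, Ephb3, Ascl2 and Rrm2, by edgeR for Gch1, Cd44, Ephb3 and Ascl2, and by DESeq2 for Cd44, at adjusted p from 0.0504 to 0.185.

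MHC class II genes, which epithelial and immune cells both express, had 3 of 9 members lower (median -3.45), H2-Ab1, H2-DMa and H2-Eb1. H2-Ab1 was present at 566, 1129 and 1083 FPKM in control and 82.6, 29.2 and 60.5 FPKM in LPA-treated mice (log2 difference -4.07, SE 0.79, adjusted p = 0.03). T cell genes moved with them: Gzma, Cd7 and Cd3g fell among 18 (median -2.73), and their sum was 475 to 676 FPKM in control, 20.6 to 202 FPKM in vehicle-treated and 32.7 to 62 FPKM in LPA-treated mice. Gzma, a granzyme and the most abundant of them, was at 319.7, 226 and 331 FPKM in control and 22.6, 27.8 and 18.4 FPKM in LPA-treated mice (log2 difference -3.67, SE 0.72, adjusted p = 0.0312). Cd3e, which defines T cells, was at 2.9, 8.78 and 9.19 FPKM in control and 1.65, 0.523 and 0.209 FPKM in LPA-treated mice. The part of T cells in the other differences was not tested. Of 31 interferon response genes limma called 0, with 4 at an unadjusted p below 0.05, 0 called by edgeR and 4 by DESeq2 (median -1.10). In fits leaving out 1 of the 10 libraries, calls were lost for H2-Ab1 in 6 (up to 0.116), H2-DMa in 7 (up to 0.131), H2-Eb1 in 7 (up to 0.165), Gzma in 7 (up to 0.133), Cd7 in 4 (up to 0.0982) and Cd3g in 7 (up to 0.19). The highest p came without LPA-treated mouse 5, except H2-Ab1 (without LPA-treated mouse 4). Under other settings calls were lost with 0.01 FPKM added for H2-Eb1 and Cd3g, with no filter for H2-Eb1 and Cd3g, with the 6 compared libraries alone for Cd3g, and without the 2 libraries for Gzma, at adjusted p from 0.0506 to 0.0696.

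The sum of 9 B cell genes was 1162 to 10761 FPKM in control and 301 to 2022 FPKM in LPA-treated mice, and that of 15 myeloid genes 47.8 to 125 and 47.1 to 116 FPKM, with overlap in both. The sum of 14 stromal genes was 8.71 to 12.9 and 13.4 to 27.8 FPKM, without overlap. Limma called 0 genes of these 3 lists. In turn, 0, 3 and 3 of them had an unadjusted p below 0.05, edgeR called 0, 0 and 0, and DESeq2 called 0, 1 and 2. Col1a1, the collagen of fibroblasts, was at 0.58, 0.11 and 0.077 FPKM in control and 0.0482, 0.448 and 0.873 FPKM in LPA-treated mice. The part of these cells in the other differences was not tested.

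**Figure D5:**
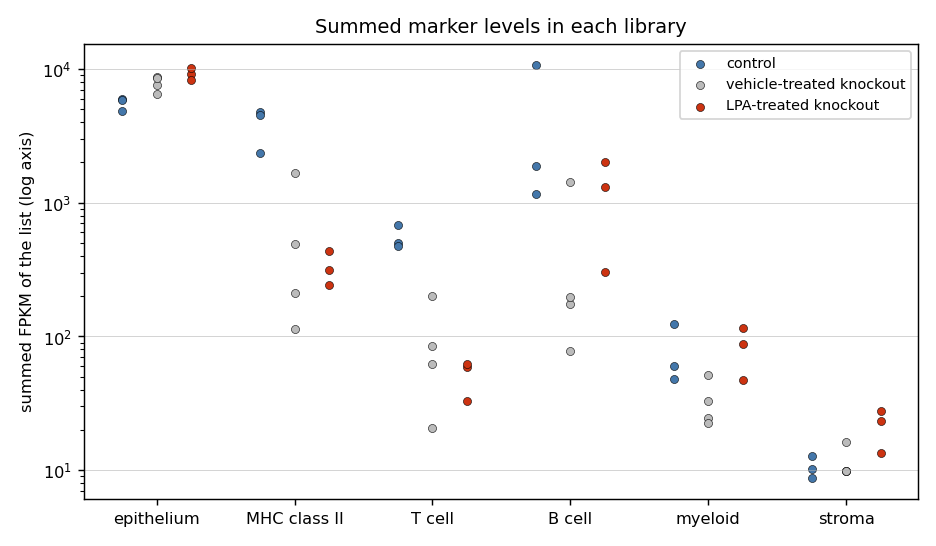
Summed FPKM (log axis) of marker lists in each library, for control (blue), vehicle-treated knockout (grey) and LPA-treated knockout mice (red). The T cell and MHC class II sums are lower in all LPA-treated than in all control libraries, while the B cell and myeloid sums overlap between those groups.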

How the data were processed

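Jejunal epithelial RNA of 10 mice was sequenced from poly-A libraries. The authors deposited FPKM values and, for some genes, read counts. These counts came with their own list of genes higher in LPA-treated than in vehicle-treated knockout mice. The submitters' processing notes name STAR 2.5, TopHat, HTSeq 0.6.1 and DESeq2, with GRCm38. Because FPKM steps give whole reads, the reads were recovered from them (within 0.05 reads), and all 63 deposited counts were matched. Fold changes, p-values and pathway enrichments made by the authors hold their own comparisons and were not used. The deposited counts served only to check the recovered reads.

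Genes averaging 0.1 FPKM or more were tested with limma 3.58.1 in R 4.3.3 (trended empirical Bayes, two-sided) on log2(FPKM + 0.1), with 1 model of 3 groups and Benjamini-Hochberg adjustment over all genes tested. Alternatives were other added values and filters, median-ratio and quantile scaling, fewer libraries, a replicate block, and edgeR 4.0.16 and DESeq2 1.42.0 on recovered reads. Promoter windows are from RefSeq. Totals of 10949420 to 24470409 reads set the depth.

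The genes and lists were chosen with earlier results of these data known. The named genes were the 12 largest calls in each direction (no overlap, at least 1 FPKM in the higher group, named symbols), per list the 3 calls with the smallest p (or the smallest p) and the most abundant member, the 12 most abundant list members within 2-fold, up to 8 genes called in vehicle-treated minus control that lay within 2-fold (0 were found), and Myo5b, Slc5a1 and Slc9a3. Other genes named with values, such as Trpm5, Cd3e and Col1a1, were chosen after their values were seen. Some genes that met these rules are not reported here.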

Additional observations from a re-analysis of the deposited data

Results flagged for a closer look

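In 15 of 162 named genes, 1 of the 4 vehicle-treated knockout mice lay far from the other 3, with a gap to its nearest neighbour above Dixon's 95% critical share of the group's whole range. Chance gives this in about 1 of 20 groups of normally distributed values. FPKM were used here without a log, and the same mice recur among the flagged genes, so that share is only a rough guide. The mean of vehicle-treated mice set beside LPA-treated mice is affected in these genes, and the groups of 3 mice were not examined in this way. Each value below is the level in the mouse, that in the other 3, and the gap as a share of the range. Mouse 3, one of the 2 libraries with few detected genes, was highest for Maf (34.1 FPKM against 9.2 to 12 FPKM, 0.887), Ube2c (103 FPKM against 39.4 to 49.5 FPKM, 0.842), Wnt4 (1.07 FPKM against 0.296 to 0.415 FPKM, 0.846), Jund (556 FPKM against 59.8 to 106 FPKM, 0.907), mt-Nd6 (108580.0 FPKM against 2077 to 2889.7 FPKM, 0.992), Igha (1021 FPKM against 20.9 to 64.7 FPKM, 0.956) and C1qa (29.2 FPKM against 1.45 to 3.07 FPKM, 0.942). It was lowest for Fbp2 (47.8 FPKM against 135 to 143 FPKM, 0.917) and Gapdh (189 FPKM against 1817 to 2019 FPKM, 0.89). Mouse 5 was highest for Cyp3a25 (8.53 FPKM against 0.776 to 1.39 FPKM, 0.92), Anxa10 (56.3 FPKM against 20.2 to 23.6 FPKM, 0.908), Plat (10.8 FPKM against 2.44 to 2.77 FPKM, 0.96) and Slc7a11 (6.85 FPKM against 0.168 to 1.02 FPKM, 0.872). Mouse 7 was highest for Gsdmc4 (2.1 FPKM against 0 to 0.329 FPKM, 0.844) and Gsdmc2 (1.52 FPKM against 0 to 0.0679 FPKM, 0.955). Reads of mt-Nd6 and of mt-Nd5 on the opposite strand cannot be told apart. The cause was not tested.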

How the results depend on the processing

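The counts of genes called higher, called lower and within 2-fold were 243, 122 and 958. They were 250, 178 and 5689 with 1 FPKM added, 203, 91 and 966 with 0.01 FPKM added, 174, 85 and 4626 with no filter, 271, 133 and 1037 at a mean of at least 1 FPKM, 221, 268 and 1715 after median-ratio scaling, 300, 326 and 2087 after quantile normalization, 115, 75 and 1076 with the 6 compared libraries alone, and 678, 668 and 3335 without control mouse 2 and vehicle-treated mouse 3. DESeq2 gave 662, 841 and 2105, with 342 of the 365 calls, and no adjusted p for 1722 genes. EdgeR gave 180 and 197 calls, with 247 of the 365, and no intervals. Leaving out 1 library at a time gave 58 to 453 higher, 15 to 249 lower and 446 to 1653 within 2-fold, the fewest calls without LPA-treated mouse 5 and the most without vehicle-treated mouse 3. The counts were 93 and 26 without control mouse 4, 71 and 16 without control mouse 5, 93 and 33 without LPA-treated mouse 1, and 74 and 31 without LPA-treated mouse 4. The cause was not tested. With 3 mice a group, most genes are neither called nor within 2-fold.

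Control and LPA-treated mice share only the numbers 4 and 5. The replicate block on these 4 libraries gave 0 higher and 0 lower calls with limma, 3722 genes at an unadjusted p below 0.05 and 1801 within 2-fold. The same 4 libraries without the block, chosen after seeing the data, gave 0 and 0 calls, 4425 genes at an unadjusted p below 0.05 and 2971 within 2-fold. Deviations of same-numbered mice correlated at 0.104 and -0.355. Those of control 4 with LPA-treated 5 and of control 5 with LPA-treated 4 correlated at -0.409 and 0.162. The deviations were taken from group means that include control mouse 2, so they cannot settle whether mice were paired. Nothing in the labels ties the mice, and they were not treated as pairs in the main fit.

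No direction was claimed for the genes within 2-fold, and they were not counted here. Among named genes that were neither called nor within 2-fold, 17 changed direction under some alternatives. Their log2 differences were Rbp2 0.30, Cldn7 0.24, Hnf4a 0.20, Nr1i2 -0.19, Fth1 0.091, Ctnnb1 1.16, Sct 0.43, Jund 0.35, Calr 0.28, Isg15 -0.53, Cox4i1 -0.31, mt-Nd6 -0.83, Gapdh 0.91, Igha -1.74, C1qa 0.60, Hba-a1 -0.61, Slc9a3 -0.61. They became, after median-ratio scaling Rbp2 -0.069, Cldn7 -0.14, Hnf4a -0.18, Fth1 -0.28, Jund -0.028, Calr -0.10. Without the 2 libraries Hnf4a -0.48, Fth1 -0.77, Ctnnb1 -0.12, Cox4i1 0.16, mt-Nd6 0.85, Gapdh -0.11, Hba-a1 0.88. With the replicate block and without it on the same 4 libraries Hnf4a -0.99, Fth1 -0.93, Ctnnb1 -0.58, Calr -0.043, Isg15 0.30, Cox4i1 0.58, mt-Nd6 1.52, Gapdh -0.40, Igha 0.58, Hba-a1 1.60. With edgeR Rbp2 -0.026, Cldn7 -0.15, Hnf4a -0.075, Fth1 -0.47, Sct -0.33, Jund -0.16, Calr -0.021, C1qa -0.74. With DESeq2 Rbp2 -0.070, Cldn7 -0.20, Hnf4a -0.11, Fth1 -0.49, Sct -0.40, Jund -0.22, Calr -0.071, C1qa -0.82. With 1 library left out at a time the differences ranged as follows, Hnf4a -0.48 to 0.74, Nr1i2 -0.60 to 0.087, Fth1 -0.77 to 0.63, Ctnnb1 -0.12 to 1.87, Sct -0.068 to 1.12, Jund -0.16 to 0.88, Isg15 -1.30 to 0.10, Cox4i1 -0.72 to 0.16, mt-Nd6 -1.79 to 0.85, Gapdh -0.11 to 1.50, C1qa -0.29 to 1.92, Hba-a1 -2.24 to 0.88, Slc9a3 -1.47 to 0.0064.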

Other observations

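Several single genes of other lists were called. Gdf15, a secreted stress hormone, stood at 0, 1.68 and 0.702 FPKM in control and 14.3, 10.9 and 25.6 FPKM in LPA-treated mice (log2 difference 4.93, SE 1.02, adjusted p = 0.0361), and was the 1 gene called among 15 targets of p53. Among 18 genes of chemokines and defence, Lcn2, which binds bacterial siderophores, stood at 0, 1.47 and 0.416 FPKM in control and 8.95, 3.91 and 36.2 FPKM in LPA-treated mice (log2 difference 4.67, SE 1.02, adjusted p = 0.046), and Il1rn, the antagonist of interleukin-1, at 0, 0.158 and 0.277 FPKM in control and 2.43, 4.51 and 2.18 FPKM in LPA-treated mice (log2 difference 3.81, SE 0.82, adjusted p = 0.044). Cybrd1, the duodenal reductase of dietary iron, stood at 0.119, 0.377 and 0.139 FPKM in control and 18.7, 5.66 and 5.06 FPKM in LPA-treated mice (log2 difference 4.82, SE 0.68, adjusted p = 0.00724) and was called in all 10 fits that left out 1 library. Ass1, which makes the precursor of arginine (log2 difference 3.61, SE 0.73, adjusted p = 0.0343), and Ddah1, which degrades methylated arginines (log2 difference 5.39, SE 0.46, adjusted p = 0.0004), rose among 15 genes of arginine and polyamine metabolism. In fits leaving out 1 of the 10 libraries, calls were lost for Gdf15 in 7 (up to 0.159), Lcn2 in 8 (up to 0.187), Il1rn in 8 (up to 0.145) and Ass1 in 8 (up to 0.121). The highest p came without LPA-treated mouse 5, except Il1rn (without LPA-treated mouse 4) and Ass1 (without LPA-treated mouse 1). Other settings also ended calls, with 0.01 FPKM added for Gdf15, Lcn2 and Il1rn, with no filter for Gdf15, Lcn2, Il1rn and Ass1, after median-ratio scaling for Il1rn, with the 6 compared libraries alone for Gdf15, Lcn2, Il1rn and Ass1, without the 2 libraries for Lcn2, and by edgeR for Gdf15, Lcn2 and Il1rn, at adjusted p from 0.051 to 0.148.

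In other lists little was called. Of 16 clock genes limma called 0, with 4 at an unadjusted p below 0.05, 1 called by edgeR and 4 by DESeq2, and Cry1 and Npas2 lay within 2-fold, while 7 fell and 1 rose without the 2 libraries. Of 13 genes encoded in mitochondria limma called 0, with 3 at an unadjusted p below 0.05, 0 called by edgeR and 1 by DESeq2 (median -0.83, and -0.39 without the 2 libraries, which held the highest shares of mitochondrial reads). Of 24 genes of fat absorption, Apoc3, an apolipoprotein, alone was called (log2 difference -2.25, SE 0.48, adjusted p = 0.0434), and 12 differences were positive and 12 negative. Of the 10 fits that each left out 1 library, the call was lost for Apoc3 in 9 (up to 0.141, without control mouse 5). Apoc3 also lost its call with no filter (0.0667), after median-ratio scaling (0.0702), with the 6 compared libraries alone (0.128), without the 2 libraries (0.0501) and by edgeR (0.067).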
